A study of Mus musculus with 2 samples.

Results

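H3K79me2 peaks that lay deep inside genes were described: peaks of the replicated list that overlapped a protein-coding gene and of which every base was at least 10 kb from the 5′ end of every annotated transcript of any gene. They were selected on where the authors' peaks fell, on chromosomes 1 to 19 and X of mm10, against the GENCODE M21 annotation. The rule chose 2605 of the 15559 peaks of the list, or 16.7%, and they are called distant peaks here. They held 11.0 of the list's 93.2 Mb. A further 12379 peaks overlapped coding genes nearer to a start and 575 overlapped no coding gene.

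H3K79me2 is dimethylation of lysine 79 of histone H3. The methyltransferase DOT1L places it, and DOT1L is brought to chromatin with complexes that take part in transcription elongation. The mark is known to begin just downstream of the start of a transcribed gene and to decline along the gene body. Host gene is used here for the coding gene that holds most of a peak's bases.

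The chromatin came from unstimulated macrophages grown from the bone marrow of C57BL/6J mice, with 2 biological replicates in 1 group and no other condition. Both libraries started from 10 ng of DNA, name the same control and carry the same donor identifier, and the labels record neither age nor sex. Nothing in them tells separate animals or separate cultures, so the spread between the replicates may be technical. The 4 deposited lists were: replicate 1 alone (22979 peaks), replicate 2 alone (31577 peaks), the pooled alignments (26838 peaks) and the replicated list. Read counts are not part of these lists, and library depth is therefore unknown. A start counted as marked if the replicated list covered 200 bp or more of the 3 kb downstream of it. By that rule 10 of 10 macrophage markers were marked, and none of 6 T cell, 5 B cell, 5 neutrophil, 4 fibroblast or 4 erythroid markers.

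The sequences below are shown because they are what lies under the finding. The first 5 lines hold the middle 200 bases of 5 distant peaks. They begin with the peak of highest fold (in an intron of Iqgap1, chr7:80777099-80777298) and the one farthest from any start (Arid1b, chr17:5252925-5253124). Next come the widest (Nipbl, chr15:8411186-8411385) and the widest with no peak between it and its host's nearest upstream start (Uvrag, chr7:98998333-98998532). The 5′-most distant peak of Hdac9 (chr12:34711914-34712113) follows, which was chosen after its values were seen. The last line holds the 200 bases before the Nipbl start from which its path was measured (chr15:8444464-8444663, minus strand). All are of the build GRCm38, the first 5 are on the plus strand, none overlaps an annotated exon, and capitals mark CpG dinucleotides.
Iqgap1 peak centre: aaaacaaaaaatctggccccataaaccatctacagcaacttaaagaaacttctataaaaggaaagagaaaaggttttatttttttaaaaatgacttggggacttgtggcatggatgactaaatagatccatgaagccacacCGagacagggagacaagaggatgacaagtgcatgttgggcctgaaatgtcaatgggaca
Arid1b peak centre: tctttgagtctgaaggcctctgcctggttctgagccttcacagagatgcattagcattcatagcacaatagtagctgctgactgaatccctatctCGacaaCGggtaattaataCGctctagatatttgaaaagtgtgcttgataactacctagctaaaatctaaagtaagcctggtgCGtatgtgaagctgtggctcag
Nipbl peak centre: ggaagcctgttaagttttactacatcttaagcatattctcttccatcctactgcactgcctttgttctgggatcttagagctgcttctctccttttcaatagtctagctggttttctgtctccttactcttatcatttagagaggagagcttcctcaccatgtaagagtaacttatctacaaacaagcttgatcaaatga
Uvrag peak centre: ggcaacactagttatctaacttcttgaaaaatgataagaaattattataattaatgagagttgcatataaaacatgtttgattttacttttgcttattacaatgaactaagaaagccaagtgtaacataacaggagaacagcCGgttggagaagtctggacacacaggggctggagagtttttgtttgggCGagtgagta
Hdac9 peak centre: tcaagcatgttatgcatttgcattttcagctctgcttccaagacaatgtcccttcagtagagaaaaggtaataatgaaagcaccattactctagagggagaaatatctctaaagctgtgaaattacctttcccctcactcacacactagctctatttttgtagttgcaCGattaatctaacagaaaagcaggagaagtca
Nipbl upstream of start: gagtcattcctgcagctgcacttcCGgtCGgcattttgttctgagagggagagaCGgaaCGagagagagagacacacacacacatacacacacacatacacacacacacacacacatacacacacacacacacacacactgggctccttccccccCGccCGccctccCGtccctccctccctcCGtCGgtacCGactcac

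The 5 peak centres held 1, 4, 0, 2 and 1 CpG dinucleotides in the order shown, and the stretch before the Nipbl start held 10. Arid1b went the other way, with 0 CpG and 23% GC in the 200 bases before the start of its path against 4 CpG and 43.5% GC at the peak centre. The medians over all members followed Nipbl. The 200 bases at the middle of a distant peak had a median observed to expected CpG ratio of 0.168 and a median GC content of 42.5%, and 23.2% of these centres held no CpG. The 200 bases before the 984 host starts from which paths were measured had a median ratio of 0.726 and a median GC content of 63.0%. None of the 2605 distant peaks had a CpG-rich window of 500 bases at its summit (ratio of at least 0.6 and GC of at least 50%), against 274 of the 12379 nearer peaks. The rule keeps annotated starts out of the distant peaks, so no test was made. Across whole peaks the medians were closer, at 42.5% GC and a CpG ratio of 0.186 for distant peaks and 44.1% and 0.231 for nearer ones.

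The 5 distant peaks just inside the 10 kb limit lay in Plcg2, Sept7, Mapk14, Clock and Sms at 10002 to 10014 bp from a start, with widths of 559 to 6730 bp. The 5 just outside lay in Stk10, Baz2b, Btbd3, Mcub and Dnajc1 at 9995 to 9998 bp, with widths of 599 to 5399 bp.

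Distant peaks had the lower median width, 2672 bp (quartiles 1255 and 5171 bp), against 3761 bp (quartiles 1897 and 7948 bp) for nearer peaks. Widths under 1 kb made up 18.5% of distant and 9.53% of nearer peaks, and widths of at least 20 kb made up 1.69% and 5.74%. A wide peak is more likely to reach within 10 kb of a start, so the rule itself bears on width. The median also followed the list, at 1157 bp for the distant peaks of the pooled list, 1002 bp for those of replicate 1's list and 1008 bp for those of replicate 2's. The median fold over the control, a value computed by the authors and used here within 1 list alone, was 4.86 for distant and 8.46 for nearer peaks. Among the 25% of coding-gene peaks with the lowest fold the median widths were 1256 and 1248 bp, and among the 25% with the highest fold 8035 and 9356 bp. In between, the distant peaks were the wider, at 3623 against 2714 bp below the median fold and at 6093 against 4496 bp above it.

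**Figure D1:**
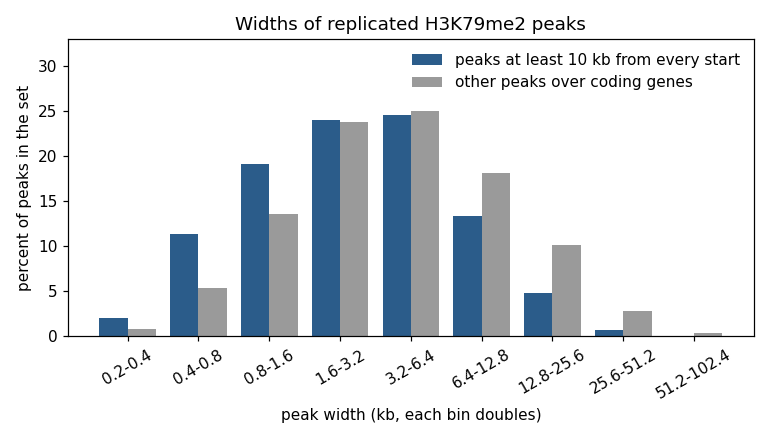
The share of distant peaks (blue, 2605 peaks) and of nearer peaks over coding genes (grey, 12379 peaks) in each width bin, in percent of each set, with bins in kb that double in width. Distant peaks fill more of the bins below 1.6 kb and fewer of those above 6.4 kb.

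The widest distant peak covered 44635 bp of the first intron of Nipbl, the gene of the factor that loads cohesin onto DNA. Replicate 1's own list covered 42219 of these bases and replicate 2's covered 44631. A peak of 44284 bp in the first intron of Alcam, a cell adhesion molecule, had 43965 bp under replicate 1's list and 43938 bp under replicate 2's. Both libraries thus held these peaks almost whole. The peaks of 41599 bp in Mdfic and 38869 bp in Nrp1, a co-receptor for semaphorins and VEGF, were also held by both, with 36688 and 35414 bp under replicate 1's list. In Tnrc6b, a component of the microRNA silencing machinery, the peak of 35250 bp lay whole under replicate 2's list and had 10807 bp under replicate 1's.

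The highest fold, 32.1, was that of a peak of 3686 bp in the second intron of Iqgap1, a scaffold protein of the actin cytoskeleton. The other 2 distant peaks in that intron had folds of 29.3 and 28.7. The rest of the 10 highest lay in Cmip, Pik3ap1, Taok3, Dock2, Mdfic, Mbnl2 and Rab8b, at folds of 27.0 to 29.8. Dock2 encodes the Rac activator of haematopoietic cells, Pik3ap1 an adaptor that links Toll-like receptors to phosphoinositide 3-kinase, and Rab8b a small GTPase of vesicle transport. Each of these 10 peaks had at least 83.9% of its bases under replicate 1's list and at least 95.3% under replicate 2's.

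The 2605 distant peaks had 911 host genes. Of these, 396 held 1 distant peak, 188 held 2, 221 held 3 to 5 and 106 held 6 or more, and those 106 held 1023 of the peaks. Peaks of 1 host share a gene and are not independent of each other. Of 9169 coding genes with room for a distant peak, meaning at least 200 bp that far from every annotated start, 9.94% were hosts, and of the 3413 that also had a marked start 25.9% were. At least 1 start was marked in 97.1% of the hosts. Hosts were long genes, with a median of 95.6 kb against 46.5 kb for genes with room and a marked start but no distant peak. Among genes with a marked start the share that were hosts was 3.76% below 10 kb of room, 23.7% from 10 to 30 kb, 48.2% from 30 to 100 kb and 62.8% above that.

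Cadm1, a cell adhesion molecule of the immunoglobulin superfamily, held the most distant peaks, 43 over 84848 bp, with widths of 287 to 6728 bp. Cdk14, a cyclin-dependent kinase, held 36 and Gab2, a docking adaptor of receptor signalling, held 23. Cux1 and Cdk6 held 22 each, Alcam and Gas7 20 each, Myo1e 19, and Arid1b and Pid1 18 each. These 10 hosts held 9.25% of all distant peaks. By bases the order was led by Runx1, with 10 distant peaks over 143378 bp, then Gab2 with 121903 bp, Arid1b with 108760 bp and Alcam with 104243 bp. Snx24, Man1c1, Pid1, Cadm1, Cux1 and Vav3 completed the 10, at 79197 to 93027 bp.

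A gene covered as a single domain from its start has no distant peak, however long the domain. Mbnl1, a splicing regulator, was covered over 94.3% of its length and had 54.6 kb of room, yet held none. Whether its coverage was a single peak is not given here. Spi1, the gene of the macrophage factor PU.1, had 1365 bp of room and none, and Dot1l had no room. The number of distant peaks thus depends on how coverage is divided into peaks, and merging peaks within 1 kb of each other left 1109 distant peaks in 596 hosts. The count also followed the list that was used, with 6180 in the pooled list, 5166 in replicate 1's list and 7500 in replicate 2's.

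Among 40 macrophage and blood transcription factors with room, 17 were hosts, out of 33 with a marked start. Runx1, needed for definitive haematopoiesis, was covered over 90.0% of its length. Etv6, an ETS-family repressor, held 7 distant peaks over 54959 bp. Mitf, a factor of osteoclast and pigment cells, held 7 over 41690 bp. In list order the first with room and no distant peak were Spi1, Runx2 and Runx3, of which Spi1 was covered over 82.9% of its length, Runx2 over 326 bp and Runx3 over none of it by the replicated list. Replicate 2's own list covered 5.73% of Runx3.

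Of 23 pattern recognition and NF-kB genes with room 7 were hosts. Pik3ap1 held 8 distant peaks over 40779 bp, Traf3, an adaptor of interferon and NF-kB signalling, held 2 over 18742 bp, and Tlr7, a receptor for single-stranded RNA, held 2 over 7714 bp. Tlr8 and Tlr13 had coverage without a distant peak, and Nod1 had none in the replicated list, although replicate 2's own list covered 50.5% of it. The median room in this list was 14.6 kb, against 51.2 kb among the transcription factors.

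Kinases and phosphatases of receptor signalling had 14 hosts of 39 with room. They were led by Ptk2b, a focal adhesion kinase relative, with 49862 bp, Inpp5d, the SHIP1 lipid phosphatase, with 19225 bp, and Jak1 with 14190 bp. Fgr and Src had no coverage in the replicated list or in either replicate's and Btk had coverage but no distant peak. Lysosome, endosome and autophagy genes had 11 of 30, led by Rab31 (23411 bp), Uvrag (23334 bp) and the proton pump subunit gene Atp6v1a (19168 bp). Lamp2, Ctsb and Ctss had coverage and no distant peak.

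Chromatin and elongation genes had 17 hosts of 41 with room. Arid1b, a subunit of the BAF remodelling complex, led with 18 distant peaks, followed by Hdac9, a class IIa histone deacetylase, and Tet2, a 5-methylcytosine oxidase, with 34051 bp in 2 peaks. Mllt1 was covered without a distant peak, and Aff3 and Mllt3 were not covered. Splicing and RNA-binding factors had 9 of 20, led by Celf2 (62145 bp), Rbms1 (46522 bp) and Tnrc6b (44262 bp). Mbnl1 and Celf1 had coverage and no distant peak, and Mbnl3 had no coverage.

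Cell cycle and DNA replication genes had 3 hosts of 20 with room, but these held 60 distant peaks. Cdk14 held 36, Cdk6 held 22 and Rb1, the retinoblastoma protein gene, held 2. Cdk8, Ccnd3 and Rbl1 were covered in part and held none. Of 19 long genes of other lineages with room, such as Themis, Bcl11b and Pax5, none had a marked start and none was a host, although their median room was 822 kb. The counts above are out of genes with room, of which 9.94% were hosts among all coding genes. Out of genes with room and a marked start, of which 25.9% were hosts among all coding genes, the counts were 17 of 33 for the transcription factors, 7 of 20 for pattern recognition, 14 of 32 for kinases and phosphatases and 11 of 26 for lysosome genes. They were 16 of 38 for chromatin genes, where the start of Hdac9 was not marked, 3 of 16 for the cell cycle and 9 of 15 for splicing factors. The lists differ in room and were chosen with earlier results known, so no list is called enriched.

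**Figure D2:**
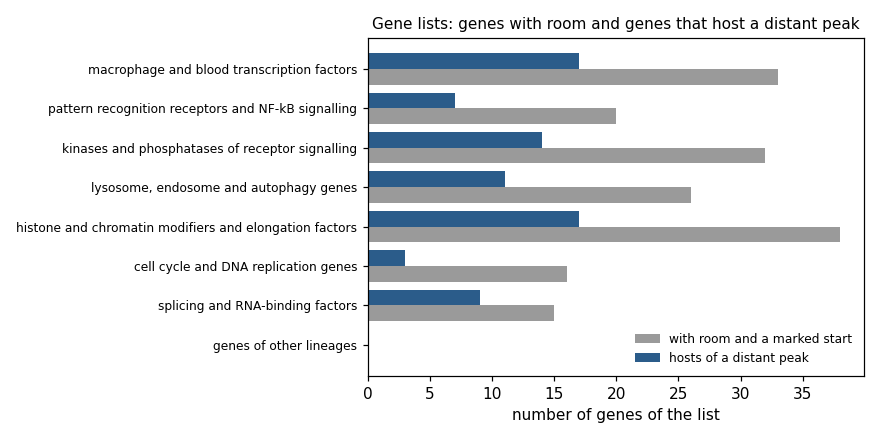
Number of genes of each list that had room for a distant peak and a marked start (grey) and number that hosted a distant peak (blue). Blue counts hosts with or without a marked start, and of the 17 hosts among the chromatin genes 16 had one. The macrophage and blood transcription factors had 17 hosts beside 33 such genes, and the list of other lineages had 0 of both.

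Most distant peaks lay in introns of the 5′ part of the host. Their median distance from the nearest annotated start was 18.9 kb, and 1207 were at least 20 kb, 205 at least 50 kb and 33 at least 100 kb away. The nearest start belonged to the host itself for 69.9% of them. Measured along the host, the median position was 35.6% of the gene's length and 69.6% lay in the first 50% of it. Introns were counted in the host's coding transcript of longest genomic span, among those tagged basic where there were any. Summits lay in the first intron of that transcript for 42.6%, in the second for 22.4% and in a later one for 32.0%. No base of an exon of the host was overlapped by 82.2% of distant peaks, against 36.6% of nearer peaks. Exons of other genes were not counted. The rule keeps the first base of every transcript out of the distant peaks, so the rule bears on this share.

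The farthest distant peak was in Arid1b, 133 kb from any annotated start, with a width of 5178 bp and a fold of 6.79. Replicate 1's list covered 2281 of its bases and replicate 2's covered 5173. Of the 10 farthest, 5 were in Arid1b, 2 in Zdhhc14, 2 in Cadm1 and 1 in Dock4, all at 118 kb or more. Their folds were 3.18 to 10.3. The peaks in Zdhhc14 and Dock4 had bases in replicate 2's list and none in replicate 1's.

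To ask whether peaks upstream in the same gene connect a distant peak to a start, the path from the nearest upstream annotated start of the host to the peak was examined. A peak was called connected where no stretch of the path over 3 kb was free of the replicated list. By this rule 1414 distant peaks (54.3%) were connected and 1131 (43.4%) were interrupted, with some coverage on the path but a longer stretch without. The remaining 60 (2.30%) had no covered base on the path. Of these 60, 22 stayed without coverage on the path under the pooled list and 15 under replicate 2's. With the path covered by replicate 2's list the share of all distant peaks without coverage on it was 0.768%, and by replicate 1's list 6.14%. The start itself was marked for all 1414 connected and for 1013 of the interrupted peaks, and the definition of connected all but fixes the first count.

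The 3 classes differed in size. The median width was 3541 bp for connected, 1922 bp for interrupted and 1338 bp for the peaks with nothing upstream, and the median folds were 5.95, 4.07 and 3.56. The path of a connected peak was covered over a median of 93.0% and that of an interrupted peak over 58.3%. For the 2545 peaks with any coverage upstream, the next covered base was a median of 747 bp away and for 55.9% of them it was within 1 kb. The connected share fell with distance from a start, from 61.9% of 876 peaks at 10 to 15 kb to 36.0% of 172 peaks at 50 to 100 kb. None of the 33 peaks beyond 100 kb was connected. A longer path has more places for a stretch without coverage, which this measure does not correct for.

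**Figure D3:**
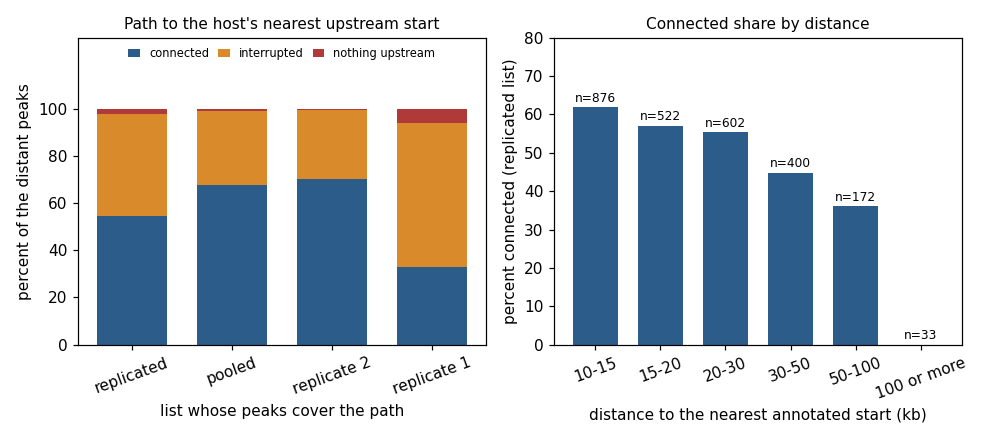
Left, the percent of the 2605 distant peaks whose path to the host's nearest upstream start was connected (blue), interrupted (orange) or free of coverage (red), with the path covered by each of the 4 lists. Right, the percent connected under the replicated list by distance from the nearest start in kb, falling from 61.9% to 0, with the number of peaks above each bar.

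The class of a peak moved with the list and the tolerance. With the path covered by the pooled list 67.6% were connected, by replicate 2's list 70.4% and by replicate 1's 32.9%, with the same members. Of the 1131 interrupted peaks, 445 were connected under replicate 2's list. A tolerance of 1 kb gave 26.8% connected and one of 10 kb gave 81.6%.

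The uncovered stretches were compared with the repeat masking of the genome. Of 4131 distinct stretches on the paths, 80 were over 6 and up to 7 kb long, and 23 of these (28.8%) were at least 80% soft-masked as repeat. Among the 316 stretches of over 3 and up to 6 kb it was 16 (5.06%), and among the 99 of over 7 and up to 10 kb it was 7 (7.07%). It was 1 of the 150 of over 10 and up to 20 kb, and 0 of the 127 above that. These length bins differ in width. Short stretches were also often masked, with 567 of the 2601 up to 1 kb (21.8%). Among the 758 of over 1 and up to 3 kb it was 60 (7.92%). Of the 4131 stretches 772 were over the 3 kb tolerance. No other bin had as high a share as that of over 6 and up to 7 kb. The part of the masking in the breaks was not tested. Letting such stretches pass added 104 peaks to the connected ones, for 58.3%. This alternative was chosen after seeing the data. Masked sequence made up 25.4% of the bases of distant peaks and 25.6% of those of nearer peaks.

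Single hosts show the classes. All 20 distant peaks of Alcam and all 7 of Man1c1, a Golgi mannosidase, were connected, and so were 9 of the 10 in Runx1. In Runx1 replicate 2's list covered 93.3% of the gene and replicate 1's 53.7%. All 18 of Pid1, 37 of 43 in Cadm1 and 21 of 23 in Gab2 were interrupted. The widest interrupted peak, of 22764 bp, lay in Acer3, a ceramidase, behind an uncovered stretch of 6126 bp. In 431 hosts all distant peaks were connected, in 268 all were interrupted, and 182 held more than 1 class. Of the 911 hosts 899 also held a nearer peak, and the highest fold among the nearer peaks was above that of every distant peak in 857 of them.

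Gm20388 was the host of 7 distant peaks and is an annotated gene model of 4434882 bp on chromosome 8 with a single start that spans other genes. They were counted as interrupted because the path ran from that start, and the widest of them, 11801 bp, also lies in Galnt2.

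The peaks with nothing upstream were mostly narrow. The widest were 8744 bp in Uvrag, 7958 bp in Plcl2, 5286 bp in Cers6, 4562 bp in Camk1d and 4403 bp in Cdc5l. The first 4 had no base under replicate 1's list, and all 5 were interrupted rather than bare when the path was taken from the outermost start. In Uvrag, a regulator of autophagy, the peak lay 13.8 kb downstream of an internal start with nothing between, while 47.6% of the whole gene was covered. Under replicate 2's list the same peak was connected. Taken from the outermost start, 17 of the 60 kept a path with no coverage.

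**Figure D4:**
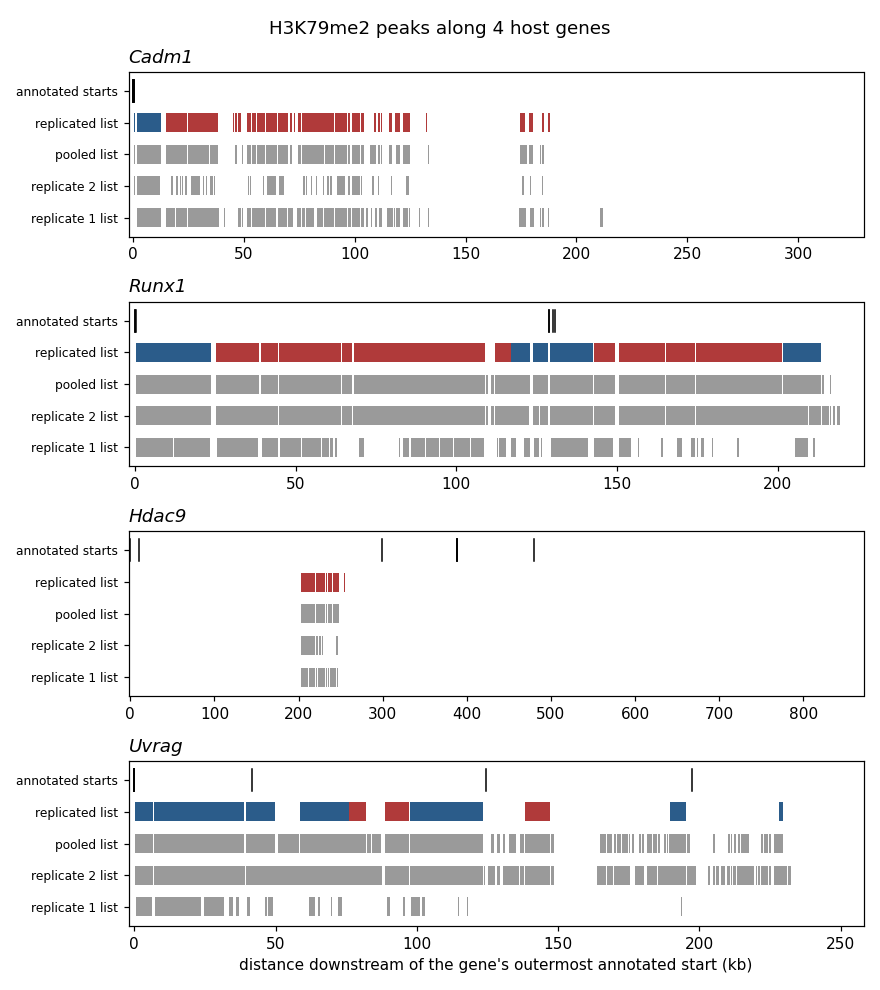
Peaks along 4 host genes, drawn by distance in kb downstream of the outermost annotated start, with black lines for annotated starts, red for distant peaks of the replicated list, blue for its nearer peaks and grey for the other lists. Hdac9 shows coverage in a single block with none at an annotated start, and in Cadm1 replicate 1's list covers more than replicate 2's.

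In 12 hosts the distant peaks were the only coverage of the replicated list. They were chosen after their values were seen, and 9 of them held a single distant peak. Hdac9 held 16 distant peaks over 40317 bp, all within a block of 53.5 kb at chr12:34660715-34714169 on mm10. The gene lies on the minus strand. The 5′ edge of the block was 193 kb downstream of the nearest upstream Hdac9 start, with no covered base between. The summits of all 16 peaks lay in the annotated gene but outside the coding transcript in which introns were counted above. None of the 16 overlapped an exon of Hdac9. The nearest annotated start of any gene was at least 32.1 kb from each of these peaks, and the nearest start in the RefSeq promoter table was 65.5 kb from the block. The peak at the 5′ edge had the highest fold of the block, 9.13 over 4313 bp, and the next one was the widest, 12364 bp at a fold of 7.96. At the other end of the block 4 peaks of 366 to 943 bp had folds of 2.38 to 2.85 and no base in either replicate's own list. Both replicates held the 5′ edge peak, with 4271 bp under replicate 1's list and 4150 bp under replicate 2's.

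Others of the 12 were small. M1ap held 2 adjoining peaks of 1090 and 1858 bp with folds of 7.54 and 17.0, both with bases in each replicate's list. Their nearest annotated start was that of the gene model Gm43981, 10.2 kb away. Ankrd55 held 1 peak of 3238 bp with 2613 bp under replicate 1's list and 3143 bp under replicate 2's, and Kcnj6, a potassium channel, held 1 of 1608 bp with 1502 and 1271 bp. Zmat5, Slc16a7, Tcf7l2, Pde4d and Cacna1a each held 1 peak of 875 to 1595 bp with no base under replicate 1's list. Replicate 2's own list covered 27365 bp of Tcf7l2, 6935 bp of Zmat5 and 8451 bp of Cacna1a, and connected the peaks of Tcf7l2 and Zmat5 to a start. The peak of 496 bp in Ccdc180 had no base in either list. Map3k9 and Ninj2 completed the set, with 4 peaks and 1. Across all distant peaks, 27 held a start of the RefSeq promoter table, 5 of them a start of the host and 22 a start of another gene, and 140 lay within 10 kb of one.

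Replicate 2 held nearly all distant peaks and replicate 1 fewer. A base under replicate 2's list was found for 92.9% of distant and 97.4% of nearer peaks, and under replicate 1's list for 59.5% and 79.4%. Both lists had a base in 1491 distant peaks (57.2%) and neither in 126 (4.84%). Replicate 2's alone had one in 930 (35.7%) and replicate 1's alone in 58 (2.23%). Among nearer peaks the shares were 78.8% for both, 2.03% for neither, 18.6% for replicate 2's alone and 0.557% for replicate 1's alone. The replicated list was made from both replicates, so these shares are no independent check of it. Among the 25% of peaks with the lowest fold, 24.9% of distant and 26.2% of nearer peaks had a base in both. Among the 25% with the highest fold it was 99.4% and 99.9%. In between, the shares were 71.9% of distant and 77.1% of nearer peaks below the median fold, and 97.4% and 98.1% above it. By class, 1012 of the 1414 connected, 464 of the 1131 interrupted and 15 of the 60 peaks with nothing upstream had a base in both.

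The widest distant peaks with no base under replicate 1's list were 17887 bp in Ankrd44, 15021 bp in Kdm6a, a histone demethylase, 11801 bp in Gm20388, 11698 bp in Clasp1, a microtubule-binding protein, and 11019 bp in Tmem51. Replicate 2's list held each of them whole. Of the distant peaks, 176 overlapped, by at least 1 bp, a peak of replicate 2's list that itself reached within 10 kb of a start. Whether they lay whole inside such a peak was not counted.

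A few hosts went the other way. Replicate 1's list covered more bases than replicate 2's in 13 of the 911 hosts, and in 22 of 2528 genes with room and a marked start but no distant peak. Cadm1 stood first, with 100904 bp (30.8% of the gene) under replicate 1's list and 47751 bp (14.6%) under replicate 2's. Of its 43 distant peaks 38 had a base in replicate 1 and 25 in replicate 2. Cdk14 had 124898 and 97308 bp, with 27 and 21 of its 36 peaks, and Hdac9 had 36031 and 25049 bp, with 12 and 8 of its 16. Usp6nl, Rasgrp3, Fam198b and Hmga2 were further hosts of this kind, named after their values were seen. Gas7 was more covered by replicate 2's list but had 17 of 20 distant peaks with a base in replicate 1 and 12 in replicate 2. Of the 58 peaks held by replicate 1 alone, 13 were in Cadm1, 9 in Cdk14 and 6 in Gas7. With 1 library each, no test of a gene between the replicates was made.

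**Figure D5:**
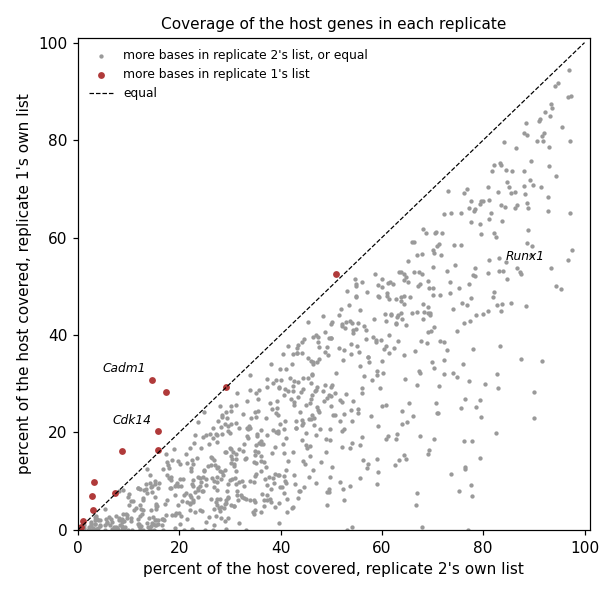
Percent of each of the 911 host genes covered by replicate 2's own list (horizontal) and by replicate 1's (vertical), 1 point a gene, with the dashed line where both are equal. The 13 hosts with more bases in replicate 1's list, Cadm1 and Cdk14 among them, are red, and the other hosts lie on or below the line.

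Summit windows were searched for motifs of factors active in macrophages. The PU.1 and ETS sequence GAGGAAGT, on either strand, was in the 300 bases around the summit of 1.04% of distant and 1.11% of nearer peaks. The AP-1 sequence TGACTCA was in 5.26% and 4.40%. Neither motif contains the other, and a match is a description of the sequence only.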

How the data were processed

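H3K79me2 ChIP-seq peaks of 2 replicates of unstimulated macrophages, 1 group, were read from 4 deposited lists on mm10: replicate 1, replicate 2, the pooled alignments and a replicated list made from both, per the deposited notes. The sources used here name no aligner, caller or threshold, and do not say how the replicated list was derived. The fold of each peak over the control is a ratio computed by the authors. Among the distant peaks 0 had a q above 0.05 by the deposited −log10 q values. Unmapped columns numbered 0.

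Distances were taken to the 5′ ends of all transcripts of GENCODE M21 (21755 coding genes on these chromosomes). The main host was the coding gene with most overlapped bases, then the longest. Overlap meant at least 1 bp. Sequence came from GRCm38. Intervals behind the alternatives are at 95%. They are exact binomial (Clopper-Pearson) for shares and taken from the ranked widths with binomial limits for the median width. They treat peaks, or genes for the share of genes with room, as independent. Python 3.11.15, numpy 2.4.6, scipy 1.17.1, pysam 0.24.0 and matplotlib 3.10.9 were used. On 400 genes with planted peaks the code placed 400 correctly.

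The members and the gene lists were chosen with earlier results of these data known, and no test was made. Named are the 10 peaks highest in fold, widest and farthest, the 5 on either side of the limit, the 5 widest of each class and without replicate 1, the 10 hosts with most peaks and most bases, up to 3 hosts and 3 non-hosts of each list, and Spi1, Runx1, Mbnl1 and Dot1l. Clec7a is not protein-coding in the annotation. The results of 1 of the 9 gene lists are not reported here.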

Additional observations from a re-analysis of the deposited data

How the results depend on the processing

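Of 79 alternative values, 28 stayed within 1.5 times (counts) or within the interval of the main value. Counting peaks from 5 kb gave 4007 members in 1452 hosts, 59.6% connected and 3.14% with nothing upstream. From 20 kb it gave 1207 members, 404 hosts, 8.45% of genes with room and 47.6% connected. The pooled list gave 6180 members, 14.7% of genes with room, 1.33% with nothing upstream and a median width of 1157 bp. With 1 replicate left out, members ranged from 5166 to 7500, hosts from 1088 to 1479, the share of genes with room from 11.9% to 16.1%, the connected share from 55.4% to 60.3% and with unchanged members from 32.9% to 70.4%, the share with nothing upstream from 1.14% to 1.24% and with unchanged members from 0.768% to 6.14%, and the median width from 1002 to 1008 bp. Starts of coding genes alone gave 10.8% of genes with room and 59.3% with a base in both replicates, and the basic transcripts gave 11.8% and 1.65% with nothing upstream. A floor at the list's median fold, 7.37, gave 650 members, 369 hosts, 4.02% of genes with room, 72.0% connected, a median width of 6609 bp and 98% in both replicates. Merging peaks within 1 kb gave 1109 members, 596 hosts, 6.50%, 28.1% connected, 5.41% with nothing upstream, 2936 bp and 47.9%. The connected share was 26.8% at a gap of 1 kb, 81.6% at 10 kb, 46.0% from the outermost start, 67.6% under the pooled list and 58.3% when mostly masked stretches passed, the last chosen after seeing the data. From the outermost start 0.653% had nothing upstream, and under the pooled list 0.883%. Requiring 50% of the bases in both replicates left 30.1%. The cause of these shifts was not tested beyond the construction of each alternative. No paired analysis was possible because the data form 1 group. Depth is unknown, so a region without a peak is not shown to lack the mark.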
